A study of Homo sapiens with 6 samples.

Results

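hnRNP A1 was isolated from HEK293T cells, a human embryonic kidney line, that transiently expressed the myc-tagged wild-type protein. The cells were given 4-thiouridine before UV crosslinking, and complexes were pulled down with a rabbit polyclonal anti-myc antibody. RNA was then recovered separately from 2 bands of the same wild-type protein. One was the monomeric band, called A1 here. The other was a slower band, called A1-HMW, which the labels describe as dimeric and whose composition the lists do not show. Both bands have 2 libraries, described as independent experiments, so that 4 of the 6 libraries of the series were compared. The comparison held 15441 of the 16269 deposited clusters, which are stretches of RNA called as binding sites in 1 library. The A1-HMW lists held 671 and 865 clusters and the A1 lists 5805 and 8100. The tagged protein came from a transfected plasmid, and the endogenous protein carries no tag. The lists hold positions without reads, so that cell type markers, read depth and the strength of single sites could not be examined. The comparison asks whether the slower band contacted the same RNA sites as the monomer.

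hnRNP A1 is an abundant nuclear RNA binding protein that shuttles to the cytoplasm. It has a pair of RNA recognition motifs and a disordered tail, and it is best known for silencing splice sites, for packaging newly made transcripts and for binding telomeric RNA. Its textbook motif is centred on UAG. PAR-CLIP marks a protein's contacts in living cells, because a crosslinked 4-thiouridine is read as C instead of T when the RNA is copied. A contact therefore needs a U in the RNA, which is written here as T.

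The sites below show what the clusters looked like. They are hg19 reference sequences read 5′ to 3′ on the strand of the transcript, with the longest run of purines in capitals. The first set held a cluster in all 4 libraries, and it is shown because it carries the sequence that the bands had in common. AGFG1, which encodes an Arf GTPase-activating protein that also serves in RNA export, had its site in an intron at chr2:228378120-228378146 (+). CUL3, the scaffold of a ubiquitin ligase, had its site in an intron at chr2:225375526-225375551 (-). DYRK1A, a protein kinase, had an intronic site at chr21:38751353-38751378 (+). EIF4G1, the scaffold of the cap-binding translation complex, had a site in its coding sequence at chr3:184039795-184039819 (+). HNRNPL, a relative of the studied protein, had a site in a noncoding exon at chr19:39327591-39327616 (-). TUG1, a long noncoding RNA, had an exonic site at chr22:31370803-31370822 (+).
AGFG1: gattGAAGGAAAGGAGGAGAGAGAGGt
CUL3: agaatGGAAAAGGAGGAAGGAGGAGt
DYRK1A: agatGAGGGAGAGAGGGAGGGAGAGt
EIF4G1: gagagtGAGAAAGGAGGAGAGGAAc
HNRNPL: gggaatGAAGGAAGAGAAGGAGAAAc
TUG1: GGGAAGGGGAGAAAAGGGAt

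The next set held a cluster in both A1-HMW libraries but not in A1, and it is shown because such sites carry what A1-HMW did not share. CHD1L, a chromatin remodeler, had its site in an intron at chr1:146748770-146748790 (+). SYT1, a calcium sensor of synaptic vesicles, had an intronic site at chr12:79830802-79830824 (+). DEPDC5, a subunit of a complex that restrains mTOR signalling, had an intronic site at chr22:32237728-32237745 (+). The other sites printed lay outside GENCODE genes on their strand, at chr6:139219327-139219348 (-), chr10:104248189-104248209 (+), chr14:30633679-30633695 (+), chr18:29581897-29581918 (-) and chr3:39585510-39585532 (-).
CHD1L: GAGGAGAGAAGAAAGGAAAAt
SYT1: agatGAGGAAAGAGAGAAAGGGc
DEPDC5: GAAAAAGcggagagtggt
chr6 site: aaggatGAGGGAGAGAGGAAGc
chr10 site: cattctccAAGGctaaatact
chr14 site: tcttgatcGAAGccctg
chr18 site: gaggctGAGGAAGAAccgggac
chr3 site: GGAAGtcccagtaaactgtggcc

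The last set held a cluster in both A1 libraries but not in A1-HMW. It shows the first such site, by position, in each of the 3 genes with most A1 clusters among genes without an A1-HMW cluster. AUTS2, a transcriptional regulator of brain development, had its site at chr7:69093654-69093678 (+), RAD51B, a DNA repair protein, at chr14:68293317-68293340 (+) and FHIT, a nucleotide hydrolase at a fragile site, at chr3:60833646-60833669 (-), each in an intron.
AUTS2: AGGAGAAAGGGAGAGGGGGAGAtgc
RAD51B: GAAGAAGGGGAGAAGGAAGGAAtg
FHIT: AGGGGAAAGAGGAAAAGGAAGtga

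The printed sites of all 4 libraries and of A1 alone each held a purine run of 18 to 22 nucleotides, with a T or C beside it. Of the 8 sites printed for A1-HMW alone, those in CHD1L and SYT1 and the chr6 site had a run of at least 12 purines and the other 5 did not.

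Most A1-HMW sites were also A1 sites. A pair of clusters that had at least 1 position of the same strand in common was counted as shared. In A1-HMW replicate 1, 473 of 671 clusters, or 70.5% (95% Wilson interval 66.9 to 73.8), overlapped a cluster of at least 1 A1 library. In replicate 2 the share was 70.2% (67.04 to 73.1), or 607 of 865. These intervals, and those below, cover counting error only. In the other direction, 13.2% of the clusters of A1 replicate 1 and 10.5% of those of A1 replicate 2 overlapped an A1-HMW cluster. The share of an A1-HMW list that was found in A1 depended on how much of A1 was used. It was 57.8% and 57.3% against A1 replicate 1, 63.9% and 62.8% against A1 replicate 2, and 50.6% on average when A1 was limited to clusters that overlapped the other A1 replicate.

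Joined over the 4 libraries, the clusters formed 11018 regions. Of these, 139 held a cluster of both A1-HMW libraries, which is 1.26% of all regions, and 111 of the 139 lay in all 4 libraries. A further 17 were shared with 1 A1 library, and 11 (0.0998% of all regions) with none. The regions held by both A1 libraries and by no A1-HMW library numbered 2663, or 24.2%. Recurrence in one band went with presence in the other. Among the regions found in both A1 libraries, 19.98% (18.7 to 21.4) held an A1-HMW cluster, against 3.96% (3.54 to 4.44) of those found in 1 A1 library. Likewise 92.1% (86.4 to 95.5) of the regions found in both A1-HMW libraries lay in A1, against 65.5% (62.8 to 68.1) of those found in 1 A1-HMW library.

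Lists of unequal length share sites to unequal degrees, so each list was also reduced to 671 clusters, the size of the smaller A1-HMW list. The values given are exact averages over all ways of drawing that many clusters at random. At this size the A1-HMW replicates shared 16.1% of their clusters, whereas the A1 replicates shared 4.75%. An A1-HMW list and an A1 list shared between 5.21% and 6.68%. The A1-HMW replicates thus overlapped each other more than any other pair of lists did at equal size. Each band gives 1 such value, so that the difference of 11.3 percentage points has no test. Drawing clusters at random does not imitate a shallower library, which would keep the sites with most reads. How far depth sets this difference was not tested.

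**Figure D1:**
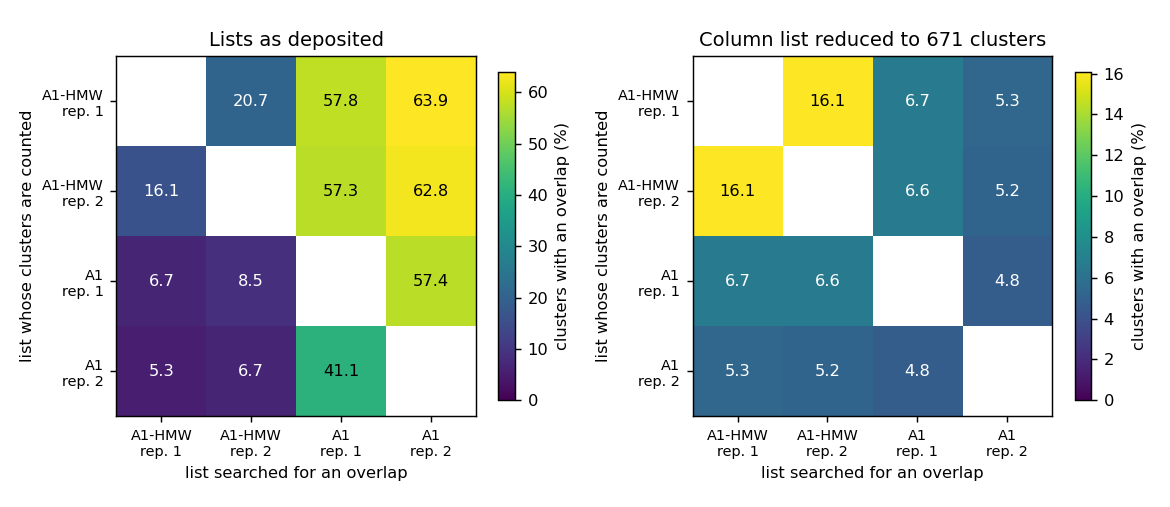
Share of the clusters of the list in each row, in percent, that overlap a cluster of the list in each column (at least 1 shared position, same strand), for the lists as deposited (left) and with the column's list reduced to 671 clusters (right). The colour follows the printed value, and each panel has its own scale. As deposited, the A1-HMW lists overlap A1 at 57.3 to 63.9%, and at equal size the A1-HMW pair stands highest at 16.1%.

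Shared sites had nearly the same edges. Of the 139 clusters that paired one to one between the A1-HMW replicates, 59.0% began at the same nucleotide and 61.2% ended at the same nucleotide. Between A1-HMW and A1 libraries, 45.2% to 49.2% of such pairs had the same 5′ end, 57.7% to 70.9% had the same 3′ end, and at least 81.7% agreed within 3 nucleotides at a given end. The median width of a cluster was 24 nucleotides in replicate 1 and 25 in replicate 2 of both bands. An A1-HMW cluster that did not overlap A1 was rarely beside an A1 site. Of 198 such clusters in replicate 1, 10 lay within 500 nucleotides of an A1 cluster on their strand, and of 258 in replicate 2, 5 did. The median distance to the nearest A1 cluster was 43332 and 47562 nucleotides. Unshared clusters were similarly rare beside other sites within A1, where each list was set against the other A1 replicate only. There 3.11% and 2.01% lay within 500 nucleotides, against 5.05% and 1.94% for A1-HMW, and the medians were 56160 and 88010 nucleotides.

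Both bands bound mostly introns, with a larger exonic and a smaller intergenic share in A1-HMW. By the class that the authors' annotation gives each cluster, which takes no account of strand, introns held 58.6% of clusters in each A1-HMW replicate, against 60.6% and 59.9% in A1. The group means were 58.6% ± 0.0307 for A1-HMW and 60.2% ± 0.475 for A1 (SD, n = 2 libraries each). Exons held 8.79% and 6.59% of A1-HMW clusters and 6.08% and 5.36% of A1 clusters, with both A1-HMW values above both A1 values. Intergenic sequence held 10.1% and 13.8% in A1-HMW and 14.4% and 16.1% in A1. Promoter regions held 11.0% and 11.2% against 9.63% and 9.67%, and the regions around transcript ends 11.3% and 9.71% against 9.27% and 8.88%. The groups did not overlap in any of these 5 classes. With 2 libraries a side, the exact two-sided permutation test gave p = 0.333 for each, the smallest value this design allows, so that no difference between the bands could pass a threshold of 0.05. The same limit holds for every difference below.

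**Figure D2:**
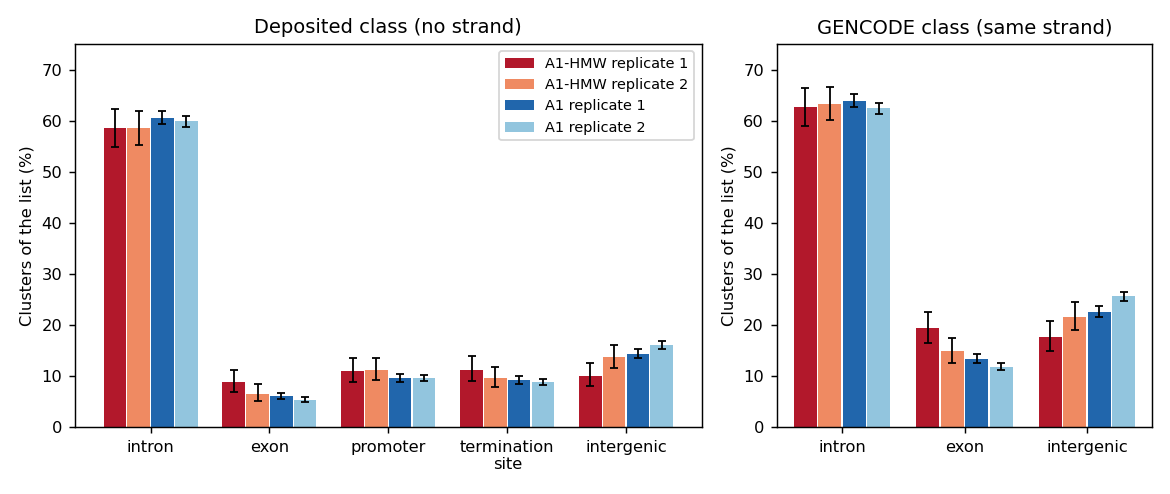
Share of the clusters of each library, in percent, by the deposited class (left) and by the strand-aware GENCODE class (right). Bars are single libraries and error bars are 95% Wilson intervals of each share. Introns hold about the same share in all 4 libraries, and the exonic share is highest in A1-HMW replicate 1, at 8.79% and 19.4%.

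By the GENCODE gene on the cluster's own strand, with exons taken before introns, the exonic share was 19.4% and 14.9% in A1-HMW and 13.5% and 11.9% in A1. The difference of 4.46 percentage points kept its direction (exact permutation p = 0.333). It was present in coding sequence, in untranslated regions and in noncoding exons, which differed by 1.03, 1.63 and 1.80 percentage points. The intergenic share was 17.7% and 21.6% against 22.6% and 25.6%. The intronic share by this annotation was 62.7% and 63.4% in A1-HMW and 63.9% and 62.5% in A1, and these groups overlapped. In both respects the A1 sites that recurred lay nearer to A1-HMW. The A1 clusters that overlapped the other A1 replicate had 14.2% in exons and 20.6% to 20.7% outside genes. The intergenic share of the deposited class was 12.3% in these clusters, near the A1-HMW mean of 11.9%.

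The regions found in both A1 libraries differed by how many A1-HMW libraries also held them. The exonic share was 13.1% among 2662 nuclear regions without A1-HMW, 16.6% among 553 with 1 A1-HMW library and 27.0% among the 111 of all 4 libraries. The intergenic share was 21.8%, 18.3% and 6.31% in the same order. The intronic share stayed between 65.1% and 66.7%. Single A1-HMW clusters outside genes were the least often shared with A1. By the GENCODE class, in replicate 1, 73.1% of exonic, 72.9% of intronic and 59.7% of intergenic A1-HMW clusters overlapped A1, and in replicate 2 the shares were 79.1%, 72.6% and 56.7%. By the deposited class they were 67.8%, 72.0% and 55.9% in replicate 1 and 71.9%, 71.2% and 53.8% in replicate 2, so that exons and introns had no fixed order.

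A1-HMW clusters lay in shorter genes than A1 clusters. The median length of the gene that held a cluster was 77.3 and 82.9 kb in A1-HMW and 98.8 and 103.2 kb in A1, with means of 80.1 ± 3.95 and 101.01 ± 3.09 kb (SD, n = 2; exact permutation p = 0.333). Genes under 50 kb held 35.9% and 36.2% of the A1-HMW clusters in genes, against 29.6% and 28.9% for A1. Genes from 200 to 500 kb held 14.5% and 15.1% against 20.6% and 21.3%, and genes over 500 kb held 3.45% and 5.17% against 6.15% and 7.20%. Bins between 50 and 200 kb were alike, at 20.3% to 24.0% in every library. In the recurrent A1 clusters the median gene length was 89.96 kb, between the bands, and genes over 500 kb held 5.07%, which lies within the A1-HMW values.

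**Figure D3:**
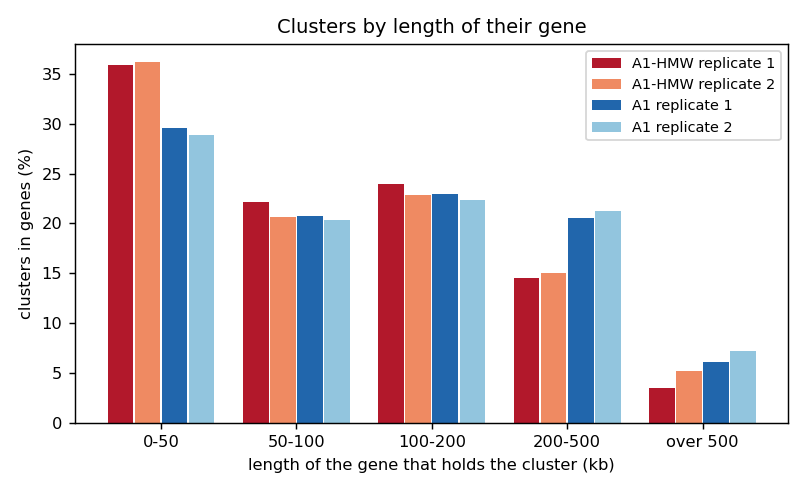
Share of the clusters in genes, in percent, by the length of the gene in kb, with 1 bar per library. The A1-HMW bars are the higher ones for genes under 50 kb, at 35.9% and 36.2%, and the lower ones for genes of 200 kb and over.

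A1-HMW clusters also lay nearer to transcription starts. The median distance from a cluster to the nearest annotated start was 4616 and 5136 nucleotides in A1-HMW and 5832 and 6087 in A1. Clusters over 50 kb from a start made up 4.03% and 4.51% against 4.98% and 5.47%. In the recurrent A1 clusters this share was 3.79%, below both A1-HMW libraries, so that the direction turned. Within introns, the median distance to the nearest exon of the gene was 2282 and 2130 nucleotides in A1-HMW and 2488 and 2639 in A1. Clusters within 300 nucleotides of an exon made up 12.8% and 14.4% of the intronic A1-HMW clusters and 12.7% and 11.96% of those of A1.

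Clusters of the 4 libraries fell in 4895 genes. Of these, 161 genes (3.29%) had a cluster in both A1-HMW libraries, whereas 2373 (48.5%) had one in both A1 libraries. A total of 1725 genes (35.2%) were hit in both A1 libraries but not in A1-HMW, and 4 genes (0.0817%) had the opposite pattern. Reduced to 671 clusters, the lists touched 511 and 484.8 genes in A1-HMW and 492.0 and 473.8 in A1, and these groups overlapped (exact permutation p = 0.667). Genes with at least 2 clusters numbered 34.0 and 35.8 against 24.9 and 23.2 at that size. A1-HMW lists of the same size thus held more genes that were hit repeatedly, at 34.9 ± 1.25 against 24.0 ± 1.21 (SD, n = 2; exact permutation p = 0.333).

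The gene with most A1-HMW clusters was CREB5, a transcription factor that binds cyclic AMP response elements. CREB5 had 2 and 4 A1-HMW clusters against 8 and 12 for A1. FAF1, an adaptor of protein degradation and cell death, had 2 and 3 against 7 and 9. HDAC8, a histone deacetylase, had 1 and 4 against 4 and 6. PRRC2C, an RNA-associated protein with long disordered stretches, had 3 and 2 against 6 and 4. SYT1 had 2 and 3 against 3 and 5. These genes were hit in both bands, and their larger A1 counts stand beside much longer A1 lists.

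Among the other genes named for their A1-HMW counts, CUL3 had 2 and 2 clusters against 2 and 3 in A1. DYRK1A had 2 and 2 against 4 and 5, and ANKRD11, a chromatin regulator, had 2 and 2 against 6 and 3. CRYBB2P1, a transcribed pseudogene of a lens crystallin, had 1 and 3 against 4 and 5. SCAF8, which binds the tail of RNA polymerase II, had 3 and 1 against 2 and 4. ZNF767P, a zinc finger pseudogene, had 2 and 2 against 3 and 3. GIGYF2, a translational repressor, had 1 and 3 against 3 and 6. ANKRD30BL stood apart, with 2 and 2 clusters in A1-HMW against 0 and 1 in A1. Its clusters lay in an intron at chr2:133013076-133013116 and chr2:133013257-133013272 (-) in replicate 1, with no purine run over 7 nucleotides. AGFG1 had 1 and 1 against 1 and 2. HNRNPA1 itself and OVCH1-AS1, an antisense RNA, had no cluster assigned to them in any of the 4 lists. The paper, in contrast, reports an OVCH1-AS1 intron as bound by A1-HMW alone, from read traces that these lists do not hold. Each cluster was assigned to at most 1 gene here. Whether a cluster in that intron carries another gene's name was not tested.

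The 4 genes hit in both A1-HMW libraries but not in A1 were EEF1E1, CHD1L, DEPDC5 and ENSG00000291336. EEF1E1, an accessory protein of the aminoacyl-tRNA synthetase complex, had 1 and 2 clusters at 3 different intronic sites, so that the gene but not a site recurred. CHD1L and DEPDC5 had 1 and 1, each at the site printed above. ENSG00000291336, a transcript of uncertain type, had 1 and 1 at chr6:26323091-26323121 (+), a cluster whose longest purine run was 5 nucleotides.

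The genes with most A1 clusters and no A1-HMW cluster were long. AUTS2 had 11 and 12 A1 clusters, RAD51B 11 and 6, FHIT 5 and 10 and ERC2, a scaffold of the presynaptic zone, 6 and 8. FARS2, a mitochondrial tRNA synthetase, had 5 and 9, and MIR924HG, a long noncoding RNA, had 6 and 7. GMDS, an enzyme of GDP-fucose synthesis, and LRMDA, a melanocyte differentiation factor, each had 4 and 7, and FOXP1, a transcription factor, and MAGI2, a synaptic scaffold, each had 4 and 6. All 10 genes were longer than 500 kb, from 568.1 kb for FARS2 to 1504 kb for FHIT. A ranking by number of clusters can itself favour long genes, which was not tested. CREB5, FAF1 and SYT1, named above for their A1-HMW counts, were also over 500 kb, at 526.6, 523.2 and 588 kb. The other genes named for those counts were shorter. At 671 clusters a list, the A1 rate would have given AUTS2 2.27 clusters over both lists, and FOXP1 and MAGI2 0.96 each. A1-HMW replicate 2 held 865 clusters, so that these values are somewhat low for the lists as deposited. An A1-HMW count of 0 is therefore a small shortfall for any single gene.

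The gene lists described below were chosen with earlier results of these data known. Their shares are therefore descriptions of these libraries and not independent enrichments. The genes of hnRNPs and related RNA binding proteins took a larger share of A1-HMW than of A1 clusters. Of 42 members, 19 had a cluster, and they held 13.4 and 5.78 of every 1000 A1-HMW clusters against 3.27 and 2.84 of every 1000 A1 clusters. Among them FUBP1, HNRNPL and HNRNPM had a cluster in both A1-HMW libraries, or 15.8% of the members with a cluster beside 3.29% of all genes. FUBP1 and HNRNPL had 1 cluster in each of the 4 libraries, and HNRNPM had 1 and 1 in A1-HMW and 2 and 2 in A1. The site in FUBP1, a single-strand DNA and RNA binding protein, lay in a noncoding exon and that in HNRNPM in an intron.

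Core spliceosome proteins had 17 of 36 members with a cluster, and held 7.45 and 5.78 per 1000 in A1-HMW against 2.93 and 2.22 in A1. SNRNP40, SNRPB and SNRPD3, all components of the small nuclear ribonucleoproteins, had a cluster in both A1-HMW libraries, or 17.6% of the members with a cluster beside 3.29% of all genes. SNRNP40 and SNRPD3 had 1 cluster in each of the 4 libraries. A further 8 of the 17 members were hit in both A1 libraries but not in A1-HMW, a pattern of 35.2% of all genes. SR and SR-related proteins, which often oppose hnRNP A1 in splicing, had 8 of 22 members with a cluster, at 0 and 2.31 per 1000 against 0.861 and 0.864. ACIN1 and PNN supplied the 2 A1-HMW clusters, both in coding sequence and both in replicate 2.

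Translation factors had 18 of 44 members with a cluster, at 7.45 and 4.62 per 1000 against 2.24 and 1.98. EIF4G1 had 2 and 1 A1-HMW clusters against 2 and 3 for A1. EEF1E1 was the other member found in both A1-HMW libraries. Together they made up 11.1% of the members with a cluster, beside 3.29% of all genes. EEF1E1, an accessory protein of the aminoacyl-tRNA synthetase complex, supplied 1 of the 5 and 2 of the 4 A1-HMW clusters of this list. EIF4A3, a helicase of the exon junction complex, had 0 and 1, and EIF4E, the cap-binding protein, had 1 and 0, with none in A1. Cytosolic ribosomal proteins had 9 of 78 annotated members with a cluster, at 2.98 and 5.78 per 1000 against 1.21 and 0.988. RPL14 had 1 and 1 against 2 and 2, and RPL27A had 1 cluster in each of the 4 libraries. RPL14 was hit at neighbouring sites of the same untranslated region in the A1-HMW libraries.

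In the lists of hnRNPs, core spliceosome proteins, translation factors and ribosomal proteins, but not of SR proteins, both A1-HMW libraries stood above both A1 libraries. The counts are small, from 2 to 9 clusters in an A1-HMW library, and the recurrent A1 clusters held 3.60 per 1000 for hnRNPs and for spliceosome proteins, 2.10 for translation factors and 1.80 for ribosomal proteins, still below both A1-HMW libraries. Gene length, which also differed between the bands, was not held fixed, and its part in these shares was not tested. The translation factor shares were not recomputed without EEF1E1.

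Chromatin remodelers had 29 of 39 members with a cluster, at 8.94 and 6.94 per 1000 against 7.24 and 6.17. BAZ1B, CHD1L and SUPT16H were found in both A1-HMW libraries, or 10.3% of the members with a cluster beside 3.29% of all genes. A further 13 of the 29 members were hit in both A1 libraries but not in A1-HMW, a pattern of 35.2% of all genes. The recurrent A1 clusters held 8.11 per 1000, above the A1-HMW mean of 7.94, so that the direction turned. Nuclear long noncoding RNAs had 9 of 17 members with a cluster, at 5.96 and 3.47 against 3.27 and 3.58. Of these 9 members, 2 were hit in both A1-HMW libraries, or 22.2% beside 3.29% of all genes. A further 5 were hit in both A1 libraries but not in A1-HMW, a pattern of 35.2% of all genes. DLEU2 had 2 and 1 against 3 and 6, TUG1 had 1 in each library, and MALAT1 had 1 and 0 against 0 and 2. Small and structural noncoding RNAs held 1.49 and 0 per 1000 against 0.345 and 0, with 1 A1-HMW cluster, in the U2 pseudogene RNU2-59P. Known splicing targets of hnRNP A1 had 6 of 22 annotated members with a cluster, at 0 and 1.16 per 1000 against 0.861 and 0.741, and these groups overlapped.

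Genes with very long introns were the only one of the 10 lists with a smaller share in both A1-HMW libraries. Of 29 annotated members, 20 had a cluster, and they held 4.47 and 8.09 per 1000 in A1-HMW against 12.1 and 10.9 in A1. FAF1 was the member found in both A1-HMW libraries, or 5% of the members with a cluster beside 3.29% of all genes. Of the 20 members, 13 were hit in both A1 libraries but not in A1-HMW, beside 35.2% of all genes. The recurrent A1 clusters held 10.8 per 1000.

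A1-HMW clusters lacked a long purine run more often than A1 clusters. A run of at least 12 A or G was present in 84.5% (81.5 to 87.0) and 87.0% (84.6 to 89.1) of A1-HMW clusters, and in 98.1% (97.7 to 98.4) and 96.6% (96.2 to 97.0) of A1 clusters. The difference was 11.6 percentage points (exact permutation p = 0.333), and both A1-HMW libraries lay below both A1 libraries. Clusters without even 8 purines in a row made up 9.55% and 7.64% of A1-HMW and 0.724% and 1.26% of A1. The median longest run was 18 nucleotides in both A1-HMW libraries and 19 in both A1 libraries, so that the typical cluster differed little.

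Most A1-HMW clusters without a run were not shared with A1. Among A1-HMW clusters that overlapped A1, 96.0% and 96.4% held a run. Among the others, 56.9% (49.9 to 63.6) and 65.1% (59.1 to 70.7) did. Put the other way, 80.2% and 77.7% of A1-HMW clusters with a run overlapped A1, against 18.3% (12.02 to 26.8) and 19.6% (13.3 to 28.0) of those without. Within A1, the same split by overlap with the other replicate gave 98.9% and 98.9% for shared clusters and 97.0% and 95.1% for unshared ones. A1 clusters overlapped A1-HMW equally often with and without a run, at 13.2% and 13.8% in replicate 1 and at 10.5% and 10.7% in replicate 2.

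**Figure D4:**
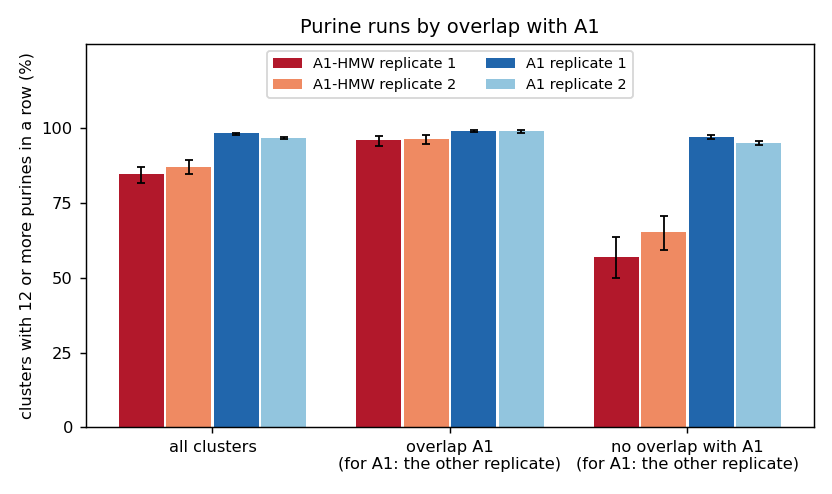
Share of clusters, in percent, with at least 12 purines in a row, for all clusters of a library and for those that do or do not overlap A1 (for the A1 libraries, the other A1 replicate). Bars are single libraries and error bars are 95% Wilson intervals. The bars of A1-HMW clusters without an A1 overlap stand lowest, at 56.9% and 65.1%, and all others are at 84.5% or above.

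Clusters without a run also recurred between the A1-HMW libraries. Of the 11 regions found in both A1-HMW libraries but not in A1, 4 held a run, as did 10 of the 17 shared with 1 A1 library and 109 of the 111 shared with both. Of the 433 regions found in 1 A1-HMW library but not in A1, 62.8% (58.2 to 67.2) held a run. The purine content of A1-HMW clusters outside A1 was 81.2% and 82.1%, against 89.8% and 90.7% for those within A1. Their T content was 12.4% and 12.1% against 7.83% and 6.96%, and their C content 6.43% and 5.77% against 2.42% and 2.37%.

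Short motifs were counted on the transcribed strand only, each on its own and with overlaps between motifs allowed. GAGGAA occurred in 30.1% and 34.3% of A1-HMW clusters and in 34.2% and 33.1% of A1 clusters. In A1-HMW clusters outside A1 it occurred in 22.3% (17.1 to 28.6) and 24.0% (19.2 to 29.6), against 33.4% and 38.6% in those within A1. TAG, the core of the textbook hnRNP A1 motif, occurred in 9.55% and 9.26% of A1-HMW clusters and in 8.19% and 9.47% of A1 clusters. Outside A1 it occurred in 11.2% and 14.3% of A1-HMW clusters, with intervals of 7.49 to 16.3 and 10.6 to 19.1. The longer TAGGG occurred in 1.79% and 1.85% against 2.21% and 2.41%. A match to these letters is a description of the window and not a contact.

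GTTCGA, letters that occur in the T loop of many transfer RNAs and in the internal promoter of their genes, was rare but present in both A1-HMW libraries. It occurred in 4 clusters of replicate 1, or 0.597% (0.232 to 1.52), and in 5 clusters of replicate 2, or 0.579% (0.247 to 1.35). In A1 it occurred in 1 cluster, or 0.0172% (0.00304 to 0.0976), and in 3 clusters, or 0.0371% (0.0126 to 0.109). Of the A1-HMW clusters with these letters, 2 in each library overlapped the other A1-HMW library. The intronic cluster in ENSG00000291336 was one of them. The annotation used holds no nuclear transfer RNA genes, so that these clusters were given no such name. Matches to snRNA, rRNA or other structural RNA, with at most 1 mismatch over at least 16 nucleotides, or the letters GTTCGA, accounted for 7 of the 104 A1-HMW clusters without a run in replicate 1 and 9 of 112 in replicate 2. In A1 they accounted for 4 of 109 and 3 of 272. Most clusters without a run therefore had no match of this kind. Looser matches, and transfer RNA sequence without these letters, were not sought. The share of structural RNA among these clusters is therefore not known.

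A1-HMW clusters lay closer together than A1 clusters at equal list size. At 671 clusters a list, 0.596% and 0.717% of A1-HMW clusters had another cluster of the list within 500 nucleotides on the same strand, against 0.308% and 0.268% of A1 clusters. The means were 0.657% ± 0.0856 and 0.288% ± 0.0285 (SD, n = 2; exact permutation p = 0.333), a ratio of 2.28. The A1-HMW values rest on 2 pairs of clusters in replicate 1 and 4 pairs in replicate 2. At 10000 nucleotides, where 18 and 26 pairs were counted, the shares were 4.92% and 4.45% against 2.19% and 2.07%, a ratio of 2.20. At 50000 nucleotides they were 12.4% and 12.01% against 7.32% and 6.85%, a ratio of 1.72. In the lists as deposited the direction was opposite, at 0.596% and 0.925% against 2.53% and 2.81% within 500 nucleotides, as a longer list holds more neighbours. In the recurrent A1 clusters, reduced to the same size, the value was 0.353% on average.

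**Figure D5:**
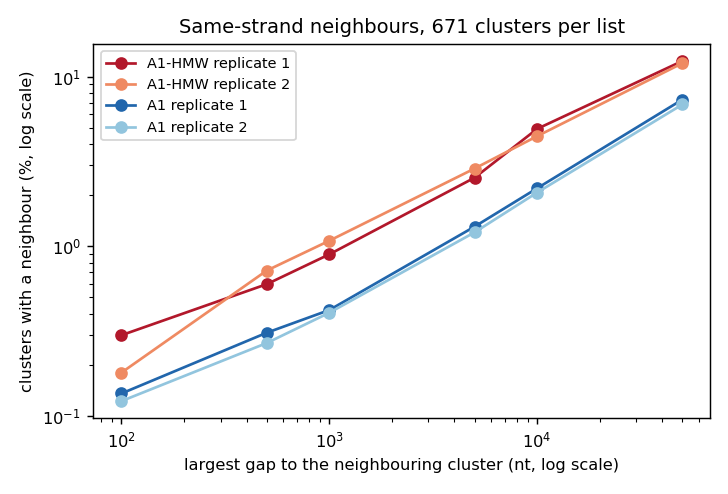
Share of clusters, in percent on a log scale, with another cluster of the same list on the same strand within the gap given on the horizontal axis (nucleotides, log scale), with every list reduced to 671 clusters. Lines join the values of 1 library. Both A1-HMW lines run above both A1 lines at each of the 6 gaps from 100 to 50000 nucleotides.

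Most close pairs of A1-HMW sites lay in 1 gene. Of the pairs within 10000 nucleotides, this held for 15 of 18 in replicate 1 and 23 of 26 in replicate 2. The same share was not computed for the A1 lists, so that it is not a difference between the bands. An A1 library held both sites in 9 of the 15 and 17 of the 23 pairs in 1 gene, and in 12 of all 18 and 20 of all 26 pairs. Within 500 nucleotides A1 held both sites in 0 of 2 and 1 of 4 pairs. Of the pairs within 10000 nucleotides, 3 recurred in both A1-HMW libraries. CUL3 had sites 8762 nucleotides apart, and both A1 libraries held both. PRRC2C had sites 8147 nucleotides apart in its coding sequence, at chr1:171501995-171502019 and chr1:171510167-171510184 (+), and A1 replicate 1 held both. ANKRD30BL had sites 140 nucleotides apart in replicate 1 and 131 in replicate 2, and neither A1 library held both.

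The other pairs within 500 nucleotides were found in 1 A1-HMW library each. PURPL, a long noncoding RNA of the p53 response, had sites 98 nucleotides apart in replicate 1. In replicate 2, sites lay 57 nucleotides apart in HOXD11, a homeobox transcription factor, 225 in DSN1, a kinetochore protein, and 499 in TCEAL9, a relative of an elongation factor. HOXD11 was the only one of these whose sites were both present in A1, in both libraries. DSN1 had 0 and 2 A1-HMW clusters and none in A1. PURPL had 2 and 1 A1-HMW clusters against 2 and 2 for A1, and TCEAL9 had 0 and 2 against 0 and 1.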

How the data were processed

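PAR-CLIP cluster lists of 4 wild-type libraries were compared. For these lists the authors trimmed adapters (BBduk), dropped reads under 10 nucleotides, took out ribosomal RNA reads and aligned the remainder (STAR in the methods, Bowtie in the submitters' processing notes, with hg19). Per the file headers, the lists are wavClusteR clusters called in each library and annotated by HOMER with Ensembl genes. The deposited values used were start and end positions. The deposited score was 0 in every line, so that depth is unknown and the numbers of clusters set the precision. The authors' peaks from another caller were not analysed here.

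The start was taken as the listed start minus 1, as in the cluster's identifier. Clusters were assigned by strand to GENCODE v44 genes lifted to GRCh37, from which sequences were read. Mitochondrial clusters were given no sequence. Python 3.11.15, pandas 2.3.3, scipy 1.17.1, pysam 0.24.0 and edlib 1.3.9.post1 were used. Averages at equal size were computed exactly and checked on simulated lists. Libraries were compared by exact two-sided permutation of group means. The paper describes independent experiments from which RNA of both bands was recovered. The labels do not say whether libraries with the same replicate number come from the same experiment, so that the main test did not pair them. The replicate number as a block is given below. Named genes were those with most A1-HMW clusters, the largest surplus over A1, clusters in 1 band only, 3 fixed genes and up to 4 members of each of 10 gene lists, without the Y chromosome, and not all of them are printed. Members and lists were chosen with earlier results of these data known. 1 site found in A1-HMW alone is not reported here.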

Additional observations from a re-analysis of the deposited data

How the results depend on the processing

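The differences in intron, exon and intergenic shares, neighbours, genes touched, purine runs, overlap, gene length, clusters far from a start and gene lists were recomputed under 168 alternatives in all. Of these, 158 kept the direction or moved by less than counting error. Part of that count was fixed in advance. Taking the replicate number as a block cannot change a mean difference. Leaving out 1 library cannot turn a difference where both A1-HMW libraries lie on 1 side of both A1 libraries. The other differences were not recomputed. Genes touched at equal list size turned from 14.98 more in A1-HMW to -2.30 when A1 was limited to clusters that overlapped the other A1 replicate, and the share with a neighbour within 500 nucleotides turned to -1.91 percentage points with all lists whole, which follows from the longer A1 lists. Limited to recurrent A1 clusters, the share over 50 kb from a start turned to 0.485 percentage points and chromatin remodelers to -0.170 per 1000. With 1 library left out, clusters per 1000 ranged from -0.863 (without A1-HMW replicate 2) to 1.45 for SR proteins, from -0.172 (without A1-HMW replicate 1) to 1.32 for structural RNAs and from -0.801 to 0.355 (without A1-HMW replicate 1) for known targets. The share of A1-HMW clusters in A1 moved from 70.3% to 50.6% with recurrent A1 clusters only, and ranged from 57.6% to 70.5% when 1 library was left out. With 1 library left out, the exon difference ranged from 0.870 to 3.07 percentage points (lowest without A1-HMW replicate 1), the intergenic difference from -5.12 to -1.50, the intron difference from -1.99 to -1.32, the gene difference from 1.87 to 28.1, the purine run difference from -12.9 to -10.3 and the neighbour difference from 0.308 to 0.429. The intergenic difference was -0.338 with recurrent A1 clusters only and the intron difference -0.136 by GENCODE. With the replicate number as a block, the mean differences are the same by construction (exon 1.97, intron -1.66, intergenic -3.31, neighbours 0.369, genes 14.98, purine runs -11.6), and an exact sign-flip test over 2 pairs cannot go below p = 0.5.

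The lists hold no reads, so that a site without enough reads and a site without binding cannot be told apart. Random reduction of a list does not imitate lower depth. The causes of these changes were not tested.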
